A study of Rattus norvegicus with 9 samples.

Results

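Vesicles were added to lipopolysaccharide-stimulated dendritic cells, and the cultures were compared with others that received lipopolysaccharide alone. The comparison takes 6 of the 9 libraries of the study, 3 labelled LPS and 3 labelled LPS+EVs, and the 11141 of 20442 genes in the table that reached at least 1 FPKM (a read-based level corrected for gene length and library size) in at least 3 of the 9 libraries. All 9 cultures were primary wild-type rat bone marrow-derived dendritic cells grown in medium with 10% fetal bovine serum, 20 ng/mL GM-CSF and 20 ng/mL IL-4. The 3 LPS cultures were labelled as treated with lipopolysaccharide (LPS), the 3 LPS+EVs cultures with LPS together with extracellular vesicles (EVs), which the title says came from ASCs, and the 3 Control cultures as untreated. The protocol gives 1 µg/mL LPS, 50 ng/mL of an agent it does not name, and 24 h of treatment. It does not say whether the unnamed agent is the vesicles, nor which cultures received it, and the vesicle dose is not given in the sources used here. The study title speaks of vesicles that deliver mitochondria and reprogram dendritic cell metabolism, so metabolic and mitochondrial genes are described beside inflammatory ones.

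LPS is a cell wall component of Gram-negative bacteria that dendritic cells sense through Toll-like receptor 4. The signal runs through NF-kB and interferon regulatory factors to cytokines, chemokines, nitric oxide and costimulatory molecules, and it moves dendritic cells from respiration towards glycolysis. Cells of many tissues release membrane vesicles that can carry proteins, RNA and organelle fragments to other cells. Mitochondria hold their own circular genome, which encodes subunits of respiratory complexes I, III, IV and V, while the other subunits come from nuclear genes.

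Libraries with the same replicate number were taken as pairs. After removal of group means, LPS and LPS+EVs libraries of 1 number correlated at 0.65 to 0.86 across genes, and the replicate number was a term of the fit. Library totals were 32148519 to 39407116 assigned reads. The libraries numbered 2 stood apart from the others in several marker sums: stromal and fibroblast markers summed to 315 FPKM in LPS replicate 2 and 413 FPKM in LPS+EVs replicate 2, against 1088 to 1879 FPKM in the other 4 libraries. Of 19 dendritic cell markers in the table, 13 reached 1 FPKM in all 6 libraries, among them the integrin Itgax at 29.8 to 42.6 FPKM and the transcription factor Zbtb46 at 1.57 to 3.36 FPKM. Flt3, Clec9a, Xcr1, Cd209, Dpp4 and Btla were below 1 FPKM in each of the 6, with Xcr1 at 0.0124 FPKM or less and Clec9a at 0.148 FPKM or less. Of 21 macrophage and monocyte markers in the table, 17 reached 1 FPKM in all 6 libraries, and their levels ranged widely. Lyz2 stood at 2407 to 5323 FPKM and Cd68 at 493 to 674 FPKM. Cx3cr1, at 0.0196 FPKM or less, and Marco, at 0.418 FPKM or less, were below 1 FPKM in each library. In such bulk samples, fewer cells of a type and less RNA per cell cannot be told apart. The titles call replicates biological and say nothing of the animals behind them, so p-values measure only the spread between these cultures.

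No gene passed an adjusted p under 0.05. The limma fit called 0 of 11141 genes higher (0%) and 0 lower (0%) in LPS+EVs than in LPS, with a smallest adjusted p of 0.776. At an unadjusted p under 0.05 the same fit had 270 genes higher (2.42%) and 330 lower (2.96%), together 5.39% of those tested. By limma-voom on reads recovered from the FPKM steps the count passing was also 0, with 630 genes at an unadjusted p under 0.05. Every gene described here therefore has a limma adjusted p of 0.776 or more, and no gene is called changed. Log2 differences are those of FPKM + 1. For 10585 genes (95%) the 95% interval lay between -1 and 1, that is within 2-fold in both directions on that scale. The median distance from the difference to either end of its interval was 0.35. Across all tested genes the SD of the log2 difference between LPS+EVs and LPS was 0.22. For LPS against Control, which shares the LPS libraries, it was 0.88, with 1912 genes higher and 3950 lower at an adjusted p under 0.05.

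Differences with the same sign in all 3 pairs were found for 1866 genes that were higher in LPS+EVs (16.7%) and 1876 that were lower (16.8%). With 3 pairs a two-sided exact sign-flip test cannot go below p = 0.25, so the sign alone was not tested. Folds were counted on FPKM + 1, which understates those of low genes. Most of these differences were small on that scale: 49 genes were at least 1.2-fold higher and 82 at least 1.2-fold lower in each pair. At 1.5-fold in each pair 3 genes were higher and 5 lower, and at 2-fold none was higher and 1, the mitochondrial gene ND4L, was lower. The 3 LPS+EVs values all lay above the 3 LPS values for 350 genes (3.14%) and all below them for 388 (3.48%).

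The size of the differences was not the same in the 3 pairs. The SD of the log2 difference over genes was 0.28 in pair 1, 0.20 in pair 2 and 0.42 in pair 3. Differences of at least 2-fold in FPKM + 1 numbered 17 higher and 60 lower in pair 1, 9 and 5 in pair 2, and 126 and 130 in pair 3. Pairs share no library. Across genes, which are not independent replicates, the differences in pairs 1 and 3 had a Pearson r of 0.49 (Spearman 0.48), those in pairs 1 and 2 of -0.16 (-0.18) and those in pairs 2 and 3 of 0.18 (0.18). In pairs 1 and 3 alone, 3226 genes were higher (29.0%) and 4229 lower (38.0%).

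**Figure D1:**
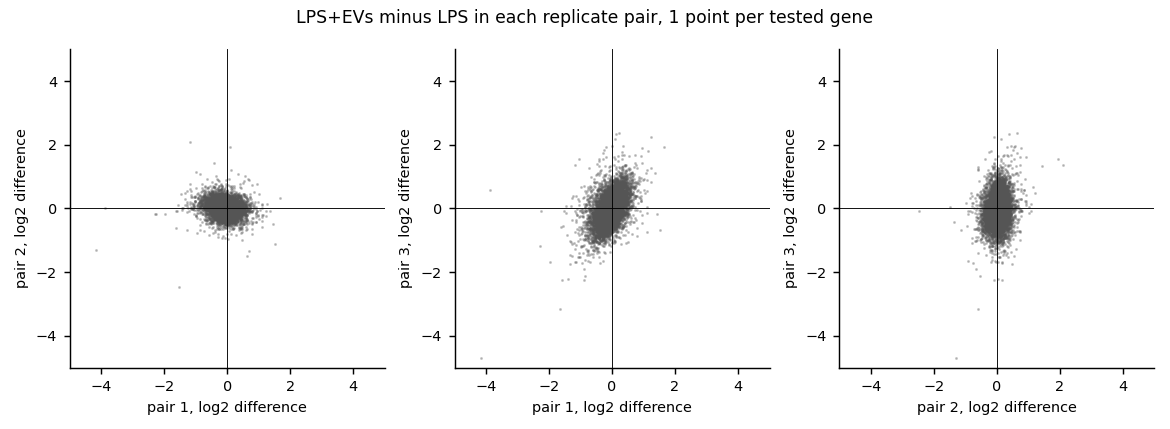
Each panel plots, for 11141 tested genes, the difference of log2(FPKM + 1) between LPS+EVs and LPS in 1 replicate pair against that in another, with 1 point per gene. The cloud leans along the diagonal only for pairs 1 and 3 (r = 0.49), and the point far to the lower left there is ND4L.

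Without the 3 libraries numbered 2, 1 gene passed as higher and 4 as lower by the same limma fit, and 2044 genes had an unadjusted p under 0.05. They were ND4L (log2 difference -4.43, adjusted p = 0.0205), the non-coding LOC120098595 (1.80, adjusted p = 0.0314), Inhba (-1.20), Mmp3 (-1.41) and Thbd (-1.37), the last 3 each at an adjusted p of 0.0445. Over all other alternatives the adjusted p of these 5 genes ran from 0.0512 to 1.00. Thbd, which encodes the anticoagulant receptor thrombomodulin, and LOC120098595 are named here after their values were seen. Thbd stood at 29.7, 10.0 and 50.4 FPKM in LPS replicates 1 to 3 and at 11.7, 15.1 and 17.5 FPKM in LPS+EVs. It was lower in pairs 1 and 3 and higher in pair 2. LOC120098595 stood at 1.08, 3.53 and 0.620 FPKM in LPS and at 5.57, 4.66 and 5.20 FPKM in LPS+EVs, so the 2 groups did not overlap, at 12 to 108 reads per library.

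The same-sign genes with the smallest p were mostly modest in level. Wdr38, a WD-repeat protein gene, had the smallest unadjusted p of all tested genes, 0.000236 in the limma fit. Its levels were 2.23, 2.42 and 2.86 FPKM in LPS and 4.25, 5.35 and 6.37 FPKM in LPS+EVs, a log2 difference of 0.84 (SE 0.13, 95% interval 0.54 to 1.15). Every LPS+EVs value was above every LPS value, and the 6 libraries held 118 to 281 reads of the gene. Control stood at 6.64 ± 0.924 FPKM (mean ± SD, n = 3), and the log2 difference of LPS from Control was -1.12. Sh2d3c, an adaptor protein of lymphocyte signalling and migration, stood at 5.62, 4.01 and 3.45 FPKM in LPS and at 10.0, 5.79 and 13.2 FPKM in LPS+EVs (log2 difference 0.95, SE 0.23), again without overlap. Ptprcap, a partner of the leukocyte phosphatase CD45, was higher in each pair (0.95, SE 0.23) but its groups overlapped, with 3.42 FPKM in LPS replicate 2 above the 3.19 and 3.09 FPKM of LPS+EVs replicates 1 and 3. Gchfr, the feedback inhibitor of the enzyme that starts tetrahydrobiopterin synthesis, was higher by 0.51, 0.47 and 0.65 on the log2 scale in pairs 1 to 3. Sulf2, a sulfatase that edits heparan sulfate, differed by 0.40 (SE 0.11) at 14.8 to 24.3 FPKM in LPS, 22.2 to 28.2 FPKM in LPS+EVs and 64.5 ± 8.16 FPKM in Control. The other 7 genes on the higher side were Bphl, a hydrolase (0.68), the adhesion molecule Mcam (0.75), the von Willebrand factor protease Adamts13 (0.54), the circadian transcription factor Dbp (0.52), the transporter Slc10a6 (0.59), the zinc finger gene Zfp496 (0.49) and the glycan-cleaving enzyme Engase (0.69).

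On the lower side 3 of the 12 genes were encoded by mitochondria and are described further on. Ptges3, a cochaperone of HSP90 that is also known as a prostaglandin E synthase, stood at 77.0, 52.2 and 76.1 FPKM in LPS and at 53.6, 40.0 and 44.3 FPKM in LPS+EVs. It was lower in each pair, with log2 differences of -0.51, -0.38 and -0.77, although LPS replicate 2 lay below LPS+EVs replicate 1 (mean difference -0.55, SE 0.11). The 12 also held Eif3j (log2 difference -0.66, SE 0.16) and Eif1ax (-0.48, SE 0.13), which encode initiation factors, and Magoh (-0.42, SE 0.11), a core protein of the exon junction complex. Magoh stood at 23.1, 20.5 and 26.4 FPKM in LPS and at 16.2, 16.6 and 18.7 FPKM in LPS+EVs, and these values did not overlap. Rock1, the kinase that acts on actomyosin downstream of RhoA, differed by -0.54 (SE 0.15), and the small GTPase gene Rap2c by -0.64 (SE 0.16). Pdpn, podoplanin, a mucin-like glycoprotein that LPS-treated cells held at 115, 32.0 and 170 FPKM, stood at 69.9, 29.2 and 97.5 FPKM with vesicles (-0.55, SE 0.14). The chemokine gene Ccl1 differed by -0.79 (SE 0.22), but it had only 2 reads in LPS replicate 2, 2 in LPS+EVs replicate 1 and 1 in LPS+EVs replicate 2.

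**Figure D2:**
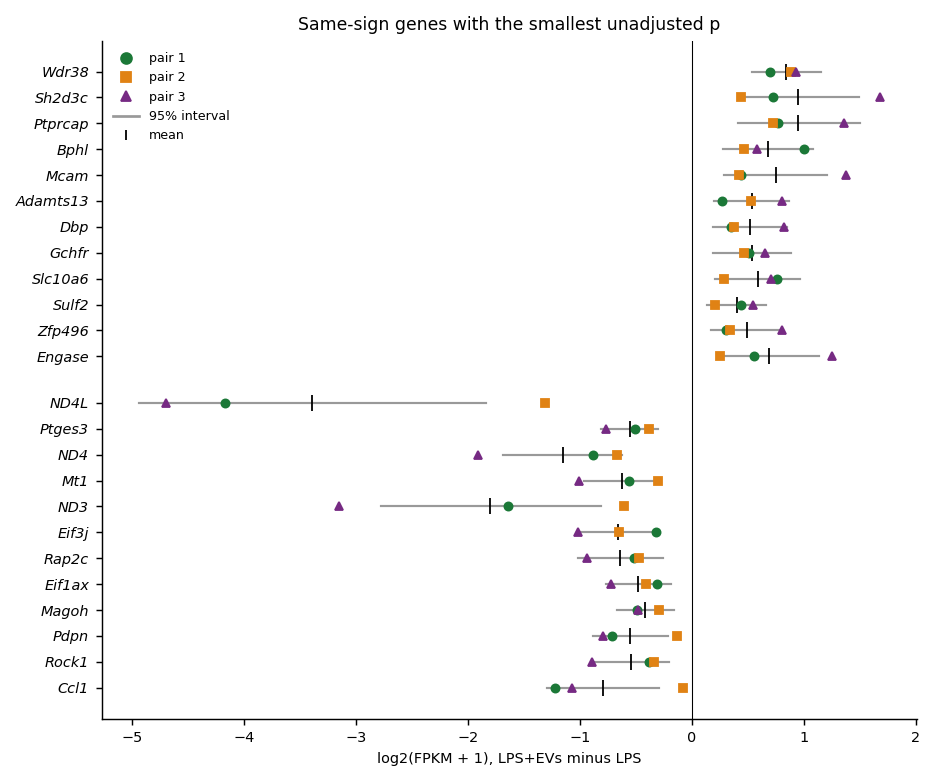
Horizontal axis: difference of log2(FPKM + 1) between LPS+EVs and LPS, for the 12 higher and 12 lower same-sign genes with the smallest unadjusted p. Symbols show pairs 1 to 3, the black tick the mean and the grey bar the 95% interval of the limma fit. ND4L lies farthest from 0, at -4.17, -1.31 and -4.70, and the genes on the higher side reach at most 1.68 in any pair.

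Most mitochondrially encoded genes had lower values with vesicles in every pair. Of 13 protein-coding genes of the mitochondrial genome, 10 were lower in all 3 pairs and none higher, against 16.8% and 16.7% of all tested genes. Their median log2 difference was -0.60, with medians of -0.34, -0.61 and -0.98 in pairs 1 to 3, where the median over all tested genes was -0.05, 0.03 and -0.01. The same 10 of 13 were counted after median-of-ratios scaling, where the background shares were 17.0% higher and 16.7% lower, and in pairs 1 and 3 alone. All 7 ND genes, which encode the core membrane subunits of complex I, were lower in each pair (median -0.84), as were 3 of the other 6 (median -0.30).

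ND4L had the greatest difference of any tested gene. Its level was 130, 60.7 and 84.8 FPKM in LPS replicates 1 to 3 and 6.28, 23.9 and 2.30 FPKM in LPS+EVs. In reads this was 1487, 662 and 970 against 72, 258 and 22. All LPS+EVs values lay below all LPS values. The ratio of plain FPKM in LPS to that in LPS+EVs was 20.6 in pair 1, 2.54 in pair 2 and 36.8 in pair 3. The fit gave a log2 difference of -3.39 (SE 0.67, 95% interval -4.94 to -1.84). Control held 318 ± 125 FPKM, and the log2 difference of LPS from Control was -1.78 (adjusted p = 0.0545 in the limma fit).

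ND3 followed the same order of pairs. It stood at 254, 112 and 255 FPKM in LPS and at 80.9, 73.3 and 27.9 FPKM in LPS+EVs, without overlap (log2 difference -1.80, SE 0.43). For ND4 the values were 392, 213 and 602 FPKM in LPS against 212, 133 and 159 FPKM, a log2 difference of -1.15 (SE 0.23, 95% interval -1.69 to -0.62). The highest LPS+EVs library of ND4 lay just under the lowest LPS library. ND5 differed by -0.84 (SE 0.23), ND2 by -0.60 (SE 0.17) and ND1 by -0.54 (SE 0.16). Of these 3, ND2 alone had no overlap, at 924, 814 and 949 FPKM in LPS and 749, 569 and 482 FPKM in LPS+EVs. ND6, the only protein gene on the light strand of the mitochondrial genome, was present at 3.41 to 10.9 FPKM in LPS and 1.70 to 4.79 FPKM in LPS+EVs (-0.83, SE 0.23).

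The abundant genes of complexes III, IV and V differed less. COX1, the catalytic subunit of cytochrome c oxidase, had 10765, 14193 and 9434 FPKM in LPS and 14587, 10992 and 9402 FPKM in LPS+EVs. It was higher in pair 1, lower in pair 2 and level in pair 3, with a log2 difference of 0.02 (SE 0.22, 95% interval -0.48 to 0.52). COX2 was lower in each pair, from 4465, 4413 and 3798 FPKM in LPS to 3756, 2793 and 2039 FPKM in LPS+EVs (-0.60, SE 0.21), and CYTB, of complex III, likewise (-0.33, SE 0.14). COX3 and ATP6 differed by -0.25 and -0.27 with mixed signs. ATP8, a small subunit of ATP synthase, had another order of pairs: 93.0, 169 and 27.9 FPKM in LPS against 31.2, 29.7 and 26.1 FPKM, so that pairs 1 and 2 carried the difference of -1.37 (SE 0.49) and pair 3 was close to 0 at -0.09.

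All mitochondrially encoded genes together took 3.15%, 3.77% and 2.83% of reads in LPS and 3.61%, 2.78% and 2.33% in LPS+EVs. That share was higher in pair 1 and lower in pairs 2 and 3. ND genes alone took 0.303%, 0.205% and 0.358% of reads in LPS and 0.210%, 0.150% and 0.147% in LPS+EVs, lower in each pair. The 3 genes with the greatest differences, ND4L, ND3 and ATP8, were also the 3 shortest of the 13, at 297, 348 and 204 bases. Over all tested genes, length and the log2 difference had a Spearman correlation of -0.05, -0.06 and -0.18 in pairs 1 to 3, a description across genes in which shorter genes were the higher ones. Counting rules for strand, for the overlap of ND4L with ND4 and of ATP8 with ATP6, and for reads that also match nuclear copies are not given in the sources used here, and their part in these values was not tested. In the limma comparison of LPS with Control, which shares the LPS libraries, levels were lower for ND1 (log2 -1.10, adjusted p = 0.000883) and ND4 (-1.44, adjusted p = 0.00157) and near 0 for COX2 (0.02, adjusted p = 0.943).

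**Figure D3:**
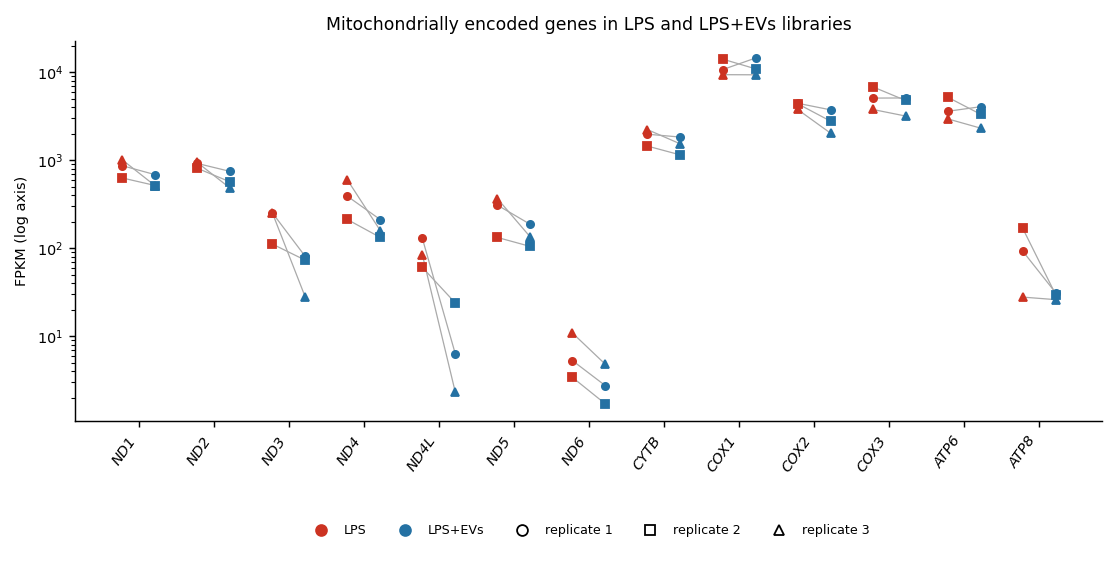
Level in FPKM (log axis) of the 13 mitochondrially encoded protein genes in the 3 LPS and 3 LPS+EVs libraries, with grey lines joining libraries of the same replicate number. Lines slope down for all 7 ND genes, most for ND4L, and cross or stay level for COX1, COX3 and ATP6.

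Among nuclear genes of the same respiratory complexes more had higher than lower values. For complex I, 15 of 37 nuclear genes were higher in all 3 pairs and 5 lower (median 0.11), against 16.7% and 16.8% of all tested genes, and for complexes II to V it was 15 higher and 1 lower of 43 (median 0.13). Ndufb7, an accessory subunit of complex I, stood at 75.3, 77.4 and 73.6 FPKM in LPS and at 84.0, 95.9 and 112 FPKM in LPS+EVs without overlap (log2 difference 0.35, SE 0.13). Sdhb, the iron-sulfur subunit of succinate dehydrogenase, differed by 0.23 (SE 0.10) and Atp5mc2, of the ATP synthase ring, by 0.29 (SE 0.13). Cycs, cytochrome c, was the 1 lower gene of complexes II to V (-0.21, SE 0.11). In pair 3 the medians were 0.25 and 0.28, and in pairs 1 and 2 they were 0.05 or less. Mitochondrial ribosomal proteins had 13 higher and 3 lower of 73 (median 0.06), a higher share near that of all tested genes, with Mrpl43 at 0.37 (SE 0.12) and Mrpl2 at 0.46 (SE 0.17). The citric acid cycle had 6 higher and 4 lower of 33 (median 0.03), among them the mitochondrial isocitrate dehydrogenase gene Idh2 at 30.0, 46.1 and 20.9 FPKM in LPS and 41.6, 47.8 and 41.5 FPKM in LPS+EVs (0.49, SE 0.17).

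Genes that shape, move and clear mitochondria had more lower than higher members. In the list of mitochondrial dynamics and mitophagy 2 of 35 were higher and 10 lower in all 3 pairs, with a median of -0.11. Of all tested genes 16.7% were higher and 16.8% lower. After median-of-ratios scaling the counts of the list were 6 and 8. Dnm1l, the fission GTPase, stood at 12.1, 15.9 and 15.6 FPKM in LPS and 11.9, 11.7 and 8.82 FPKM in LPS+EVs (log2 difference -0.39, SE 0.16), all below the LPS values, though pair 1 differed by only -0.01. The fusion gene Mfn1 differed by -0.27 (SE 0.12). The mitophagy receptors Bnip3 and Bnip3l, which are also hypoxia targets, differed by -0.46 (SE 0.19) and -0.35 (SE 0.12) and were lower in each pair. Hypoxia response genes as a list had 2 higher and 4 lower of 24 (median -0.13, and -0.31 in pair 3), a lower share near that of all tested genes. Mitochondrial import genes and chaperones had 5 higher and 8 lower of 37 (median -0.03).

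Many cytosolic ribosomal protein genes had higher values with vesicles in every pair. Of 87 tested, 48 were higher in all 3 pairs and 2 lower, against 16.7% and 16.8% of all tested genes, with a median log2 difference of 0.26. The size depended on the pair: the medians were 0.16, 0.05 and 0.60 in pairs 1 to 3. After median-of-ratios scaling 43 were higher and 2 lower, and in pairs 1 and 3 alone 75 were higher and 3 lower, where 29.0% and 38.0% of all genes were. The list holds 11 genes whose symbols end in l or in l and a digit, the form used for like-named relatives, and how reads were divided between such genes was not tested. Without them 43 of 76 were higher and none lower, with a median again of 0.26. LPS+EVs values all lay above the LPS values for 22 members, and for 3.14% of all tested genes. They included Rps27a, made as a fusion with ubiquitin, at 204, 202 and 246 FPKM in LPS and 293, 267 and 282 FPKM in LPS+EVs (log2 difference 0.37, SE 0.11). Rps28, of the small subunit, stood at 215, 216 and 182 FPKM in LPS and at 240, 265 and 366 FPKM in LPS+EVs (0.48, SE 0.18). All ribosomal protein genes together took 2.22%, 2.37% and 1.95% of reads in LPS and 2.49%, 2.44% and 2.91% in LPS+EVs, higher in each pair and highest in the LPS+EVs library numbered 3. The Control libraries held 3.84% to 4.25%. These are short transcripts, and in pair 3, where shorter genes were higher across all genes (Spearman -0.18), the part of length was not tested.

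Ribosome biogenesis genes, which make ribosomal RNA and assemble it with protein, had more lower than higher members. Of 46 tested, 1 was higher and 18 lower in all 3 pairs, against 16.7% and 16.8% of all tested genes, with a median of -0.26. Pair 2 stood apart here, at a median of 0.01 against -0.38 and -0.45 in pairs 1 and 3, where 38 of 46 were lower against 38.0% of all genes. Noc3l, a nucleolar assembly factor, stood at 6.66, 3.60 and 8.46 FPKM in LPS and at 4.53, 2.91 and 5.10 FPKM in LPS+EVs (log2 difference -0.45, SE 0.16). Npm1, the abundant nucleolar chaperone, was at 158, 132 and 177 FPKM in LPS and 146, 112 and 149 FPKM in LPS+EVs (-0.19, SE 0.10). Utp20, of the small-subunit processome, differed by -0.50 (SE 0.26), and the RNA polymerase I subunit gene Polr1f by -0.46 (SE 0.23) with a higher value in pair 2. The same list had a median of -1.38 in LPS against Control, and ribosomal proteins had -0.95. Aminoacyl-tRNA synthetases had 1 higher and 1 lower of 16 (median -0.10) and amino acid transporters 0 higher and 3 lower of 20 (median -0.12). In pairs 1 and 3 alone the synthetases had 1 higher and 11 lower and the transporters 4 and 13, where 29.0% and 38.0% of all genes were. Slc7a11, the cystine importer, stood at 33.1, 16.3 and 52.3 FPKM in LPS and at 18.8, 15.7 and 16.1 FPKM in LPS+EVs (-0.82, SE 0.33), with pair 2 near 0.

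**Figure D4:**
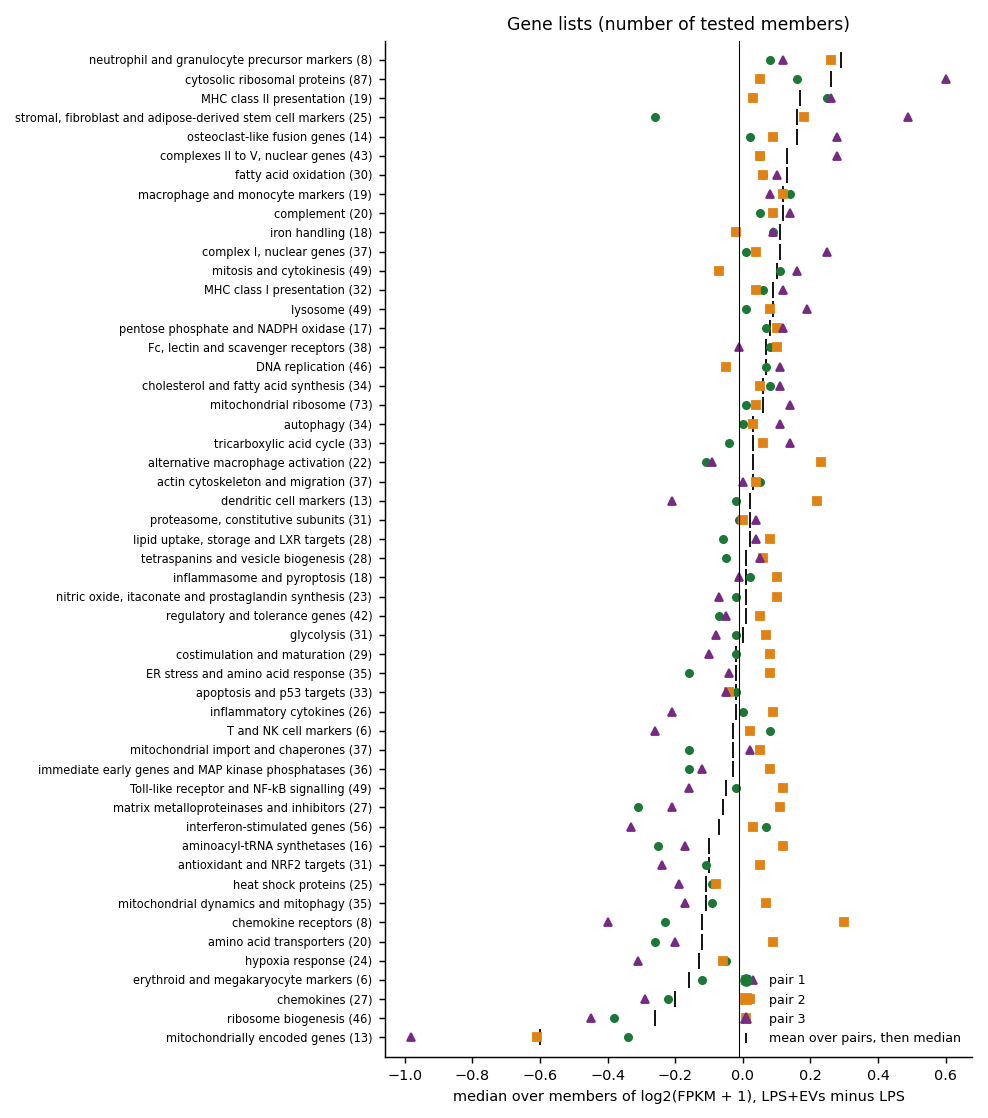
Median over the tested members of each gene list (number in brackets, lists with at least 5) of the difference of log2(FPKM + 1) between LPS+EVs and LPS, for each pair (symbols) and for the mean over pairs (tick). The vertical line is the median of all tested genes, -0.01. Mitochondrially encoded genes (-0.60) and ribosome biogenesis (-0.26) lie at the lower end, with pair 2 near 0 for the second, and ribosomal proteins (0.26) near the upper end with pair 3 at 0.60.

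Heat shock proteins and metallothioneins, 2 families of stress-response genes, were each more often lower than higher. Of 25 tested heat shock genes 1 was higher and 10 lower in all 3 pairs (median -0.11, and 1 and 7 after median-of-ratios scaling), against 16.7% and 16.8% of all tested genes. Of the lower ones 4 had LPS+EVs values wholly below the LPS values, as did 3.48% of all tested genes. Hsp90aa1, the inducible HSP90, stood at 193, 273 and 221 FPKM in LPS and at 186, 192 and 114 FPKM in LPS+EVs (log2 difference -0.50, SE 0.21). Cacybp, an HSP90-linked scaffold protein, stood at 12.1, 11.2 and 16.4 FPKM in LPS and 8.69, 8.79 and 9.86 FPKM in LPS+EVs (-0.48, SE 0.14). Hspa4, a nucleotide exchange factor for HSP70, differed by -0.25 (SE 0.10), and Chordc1, an HSP90 cochaperone, by -0.44 (SE 0.17) with pair 1 at -0.04. Hspe1, the mitochondrial HSP10, which was counted with the mitochondrial import genes, stood at 40.3, 36.1 and 44.9 FPKM in LPS and at 33.3, 31.3 and 33.2 FPKM in LPS+EVs, without overlap (-0.30, SE 0.11). Control held 119 ± 14.3 FPKM of it.

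Metallothioneins are small cysteine-rich proteins that bind zinc and copper, and their genes are read by the metal-sensing factor MTF1. Mt1 stood at 397, 81.8 and 282 FPKM in LPS and at 269, 66.3 and 139 FPKM in LPS+EVs, with 43.8 ± 24.9 FPKM in Control. Mt2A stood at 343, 48.1 and 301 FPKM in LPS and at 200, 42.4 and 123 FPKM in LPS+EVs, with 63.9 ± 36.8 FPKM in Control. Both were lower in each pair, with log2 differences of -0.56, -0.30 and -1.01 for Mt1 and of -0.78, -0.18 and -1.29 for Mt2A. Replicate 2 was low in both groups, so the groups overlapped. The mean log2 differences were -0.62 (SE 0.15, 95% interval -0.96 to -0.29) and -0.75 (SE 0.22, -1.26 to -0.24).

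The promoters of these 2 metallothionein genes and of 2 chaperone genes are shown with their motif matches. The metallothioneins are the 2 tested in this family, and the chaperones Hspe1 and Chordc1 were chosen after their matches were seen, as named genes with 3 or more. Of the other chaperones named above, the Cacybp promoter held 1 match and that of Hspa4 held 0, and no promoter of Hsp90aa1 was matched in the RefSeq table. They run from 250 bases before to 50 bases after the transcript start, 5′ to 3′ on the strand of the gene, from RefSeq on build GRCr8, which is not the build of the expression table. Capitals mark matches, on either strand, to the metal response element core TGCACNC or TGCGCNC in Mt1 (chr19:10832926-10833225, minus strand, 6 matches) and Mt2A (chr19:10838659-10838958, minus strand, 4 matches). In Hspe1 (chr9:64084077-64084376, plus strand, 3 overlapping matches) and Chordc1 (chr8:23650571-23650870, plus strand, 4 overlapping matches) they mark GAANNTTC or TTCNNGAA, the paired units of a heat shock element.
Mt1: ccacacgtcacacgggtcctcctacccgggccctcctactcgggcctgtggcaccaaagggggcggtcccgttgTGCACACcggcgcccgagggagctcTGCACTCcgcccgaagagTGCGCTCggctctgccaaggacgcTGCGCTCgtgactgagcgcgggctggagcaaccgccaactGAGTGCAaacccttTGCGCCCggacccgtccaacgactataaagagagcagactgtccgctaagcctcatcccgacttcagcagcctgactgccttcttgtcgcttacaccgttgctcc
Mt2A: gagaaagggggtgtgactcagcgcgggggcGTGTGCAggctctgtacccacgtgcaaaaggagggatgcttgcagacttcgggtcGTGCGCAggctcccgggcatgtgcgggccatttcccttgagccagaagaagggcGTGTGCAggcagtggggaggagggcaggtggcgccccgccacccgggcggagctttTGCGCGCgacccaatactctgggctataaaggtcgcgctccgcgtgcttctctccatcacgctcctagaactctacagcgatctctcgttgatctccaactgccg
Hspe1: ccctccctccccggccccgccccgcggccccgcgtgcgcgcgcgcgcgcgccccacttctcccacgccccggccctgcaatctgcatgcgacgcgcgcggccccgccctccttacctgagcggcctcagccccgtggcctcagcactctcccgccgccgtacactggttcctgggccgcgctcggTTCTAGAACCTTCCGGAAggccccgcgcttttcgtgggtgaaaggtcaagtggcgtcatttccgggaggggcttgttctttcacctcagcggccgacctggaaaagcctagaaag
Chordc1: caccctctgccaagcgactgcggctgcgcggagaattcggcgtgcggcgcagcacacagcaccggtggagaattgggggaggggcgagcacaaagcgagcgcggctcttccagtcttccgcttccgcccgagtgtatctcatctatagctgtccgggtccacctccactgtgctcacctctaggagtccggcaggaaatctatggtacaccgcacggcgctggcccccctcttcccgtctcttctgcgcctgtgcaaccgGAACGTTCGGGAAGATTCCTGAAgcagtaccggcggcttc
Of 33469 rat promoters of this length, 24.2% held at least 1 metal response core and 1.68% held 3 or more. At least 1 heat shock unit pair was found in 15.9% of them and 3 or more in 0.368%. Among 20 promoters matched to the tested heat shock list, 12 held a match and 4 held 3 or more. A match is a description of the letters and was not tested as a binding site.

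Other redox and stress lists were mixed, where 16.7% of all tested genes were higher and 16.8% lower in all 3 pairs. Antioxidant and NRF2 target genes had 4 higher and 6 lower of 31 (median -0.10), both metallothioneins included, with the glutathione transferase Gstm1 on the higher side at 33.9, 29.7 and 34.3 FPKM in LPS and 44.5, 33.5 and 48.2 FPKM in LPS+EVs (log2 difference 0.34, SE 0.10). Hmox1, the heme-degrading heme oxygenase, was lower by a small amount in each pair, from 1003, 609 and 880 FPKM to 897, 567 and 742 FPKM (-0.17, SE 0.17, 95% interval -0.57 to 0.23). Iron handling had 5 higher and 3 lower of 18 (median 0.11), with the transferrin receptor Tfrc lower in each pair (-0.71, SE 0.24). Endoplasmic reticulum stress genes had 3 higher and 7 lower of 35 (median -0.02), apoptosis and p53 targets 4 and 8 of 33 (-0.02), and immediate early genes with MAP kinase phosphatases 6 and 8 of 36 (-0.03). In pairs 1 and 3 alone these lists had 5 higher and 19 lower, 10 and 15, and 9 and 19, where 29.0% and 38.0% of all genes were. Fosl1, an AP-1 subunit, stood at 10.6, 4.34 and 21.3 FPKM in LPS and 6.12, 4.18 and 5.98 FPKM in LPS+EVs (-0.81, SE 0.32). Constitutive proteasome subunits had 4 higher and 4 lower of 31 (0.02).

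Several of the best-known LPS response genes had differences near 0 between the groups. Nos2, the inducible nitric oxide synthase, stood at 1077, 1710 and 1157 FPKM in LPS and at 1095, 1801 and 1109 FPKM in LPS+EVs, against 3.01 ± 0.222 FPKM in Control. Its log2 difference between LPS+EVs and LPS was 0.01 (SE 0.17, 95% interval -0.38 to 0.40). Acod1, which makes itaconate, stood at 393, 327 and 373 FPKM in LPS and at 412, 351 and 401 FPKM in LPS+EVs (0.09, SE 0.32, interval -0.65 to 0.83). It was higher in each pair, by 0.07, 0.10 and 0.11 on the log2 scale. The SE also takes in the Control libraries, where Acod1 stood at 24.6, 72.8 and 57.2 FPKM. Tnf (0.07, interval -0.21 to 0.35), Cd40 (-0.11, -0.53 to 0.32), Cd80 (0.12, -0.43 to 0.67) and Cd86 (-0.23, -0.66 to 0.19) had mixed signs over the pairs. The intervals of all 6 genes lie within 2-fold in both directions.

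Some cytokine genes had the same sign throughout. Il1b stood at 2306, 4327 and 2038 FPKM in LPS and at 2986, 4671 and 2844 FPKM in LPS+EVs, higher in each pair (log2 difference 0.32, SE 0.17, 95% interval -0.08 to 0.73). Il6 was lower in each pair, from 139, 162 and 172 FPKM to 116, 147 and 75.1 FPKM, with most of the difference in pair 3 (-0.53, SE 0.49, interval -1.66 to 0.60). The anti-inflammatory Il10 was low and lower in each pair, from 2.94, 1.26 and 6.09 FPKM to 2.22, 0.990 and 3.89 FPKM (-0.34, SE 0.26, interval -0.95 to 0.27). Il12b, a subunit of interleukins 12 and 23, varied far more between replicates than between groups, at 30.8, 275 and 66.0 FPKM in LPS and 39.1, 300 and 63.5 FPKM in LPS+EVs (0.13, interval -1.19 to 1.46). Arg1, arginase, was lower in each pair (-0.31, SE 0.18), with 753 FPKM in LPS replicate 3 against 443 FPKM in LPS+EVs replicate 3. As a list, inflammatory cytokines had 4 higher and 7 lower of 26 in all 3 pairs (median -0.02), against 16.7% and 16.8% of all tested genes.

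Inhba, the activin A subunit, had the lowest log2 difference among the cytokines. It stood at 175, 115 and 157 FPKM in LPS and at 71.5, 128 and 72.2 FPKM in LPS+EVs, with log2 differences of -1.28 in pair 1, 0.15 in pair 2 and -1.11 in pair 3 (mean -0.75, SE 0.26). Lif, an IL-6 family cytokine, had the same pattern at 40.7, 19.2 and 38.2 FPKM against 26.6, 19.5 and 20.0 FPKM (-0.49, SE 0.20). Il33, an alarmin, was lower in all 3 pairs (-0.54, SE 0.23). Control held 10.7 ± 2.55, 3.19 ± 1.52 and 4.57 ± 1.28 FPKM of Inhba, Lif and Il33.

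Among 27 chemokines 3 were higher and 4 lower in all 3 pairs (median -0.20), against 16.7% and 16.8% of all tested genes. Taking pairs 1 and 3 alone, 6 chemokines were higher and 14 lower, against 29.0% and 38.0% of all genes. Ccl17, a ligand of Ccr4 on T cells, was higher in each pair, at 765, 1874 and 1116 FPKM in LPS and 918, 2302 and 1629 FPKM in LPS+EVs (log2 difference 0.37, SE 0.11). Cxcl1, which draws neutrophils, was lower in each pair, at 417, 300 and 583 FPKM in LPS and 290, 271 and 308 FPKM in LPS+EVs (-0.53, SE 0.16). Of 8 chemokine receptors 2 were higher and none lower (median -0.12). Ccr7, the lymph node homing receptor, stood at 147, 142 and 417 FPKM in LPS and 109, 195 and 246 FPKM in LPS+EVs, with pair 2 opposite to the others (-0.24, SE 0.21). Interferon-stimulated genes had 8 higher and 5 lower of 56 (median -0.07), with Bst2, the tetherin gene, at 0.22 (SE 0.10) and Cmpk2 at -0.50 (SE 0.23). Toll-like receptor and NF-kB genes had 9 higher and 5 lower of 49 (-0.05), among them the inhibitor gene Nfkbib at 0.27 (SE 0.11). Costimulation and maturation genes had 4 higher and 2 lower of 29 (-0.02), where Vsir, an inhibitory ligand of T cells, had no overlap between groups at 29.5, 30.5 and 15.5 FPKM in LPS and 36.2, 31.8 and 33.8 FPKM in LPS+EVs (0.47, SE 0.19). In pairs 1 and 3 alone the balance turned in these 3 lists, to 11 higher and 20 lower for interferon-stimulated genes, 13 and 21 for Toll-like receptor and NF-kB genes and 7 and 12 for costimulation and maturation, where 29.0% and 38.0% of all genes were. The checkpoint ligand Cd274 differed by 0.31 (SE 0.20, interval -0.16 to 0.77) with pair 2 at -0.08.

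**Figure D5:**
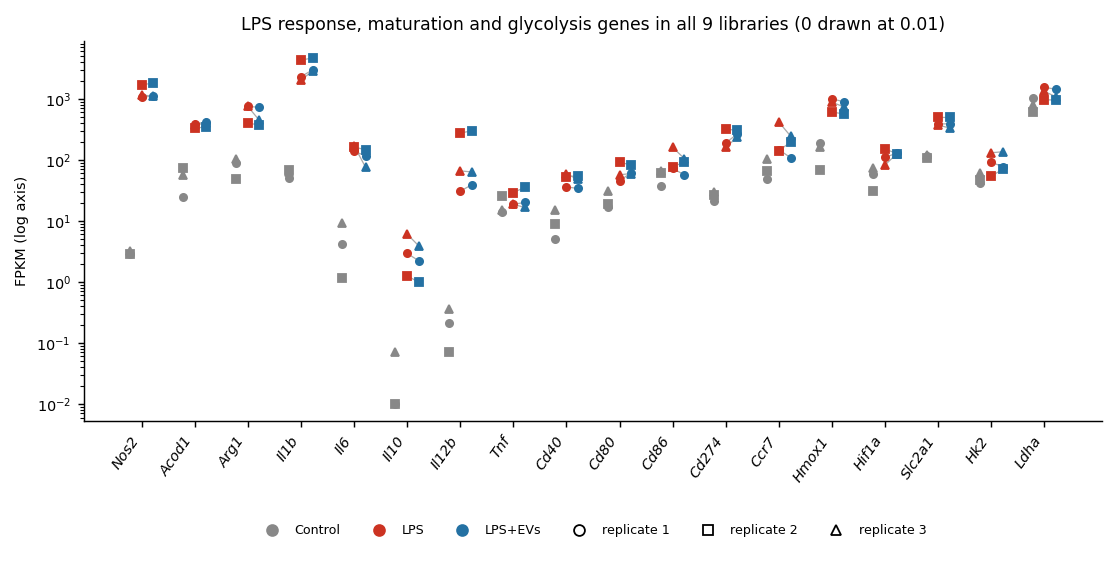
Level in FPKM (log axis) of 18 LPS response, maturation and glycolysis genes in all 9 libraries, with colours for the groups, symbols for replicate numbers and lines joining LPS and LPS+EVs of 1 number. Nos2 points lie at 1077 to 1801 FPKM in both groups, the steepest line of Il6 runs from 172 to 75.1 FPKM in pair 3, and Il10, listed at 0 in some Control libraries, is drawn there at 0.01.

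The list of nitric oxide, itaconate and prostaglandin genes had 6 higher and 4 lower of 23 in all 3 pairs (median 0.01). The shares over all tested genes were 16.7% and 16.8%. Lta4h, the leukotriene A4 hydrolase, had no overlap between groups, at 62.7, 119 and 65.5 FPKM in LPS and 150, 133 and 158 FPKM in LPS+EVs (log2 difference 0.89, SE 0.33, 95% interval 0.12 to 1.65). LPS libraries lay below the 340 ± 135 FPKM of Control. Alox5ap, the activating protein of 5-lipoxygenase, was higher in each pair (0.44, SE 0.14) and so was Ptgs1, cyclooxygenase 1 (0.33, SE 0.11). Ptges3, described above, had the smallest p of the list and was lower in each pair (-0.55, SE 0.11).

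Glycolysis genes had a median difference of 0 on the log2 scale. Of 31 genes 7 were higher and 1 lower in all 3 pairs, against 16.7% and 16.8% of all tested genes. Among the higher ones 4 had no overlap between groups, as did 3.14% of all tested genes. In pairs 1 and 3 alone the balance turned, with 10 higher and 12 lower, where 29.0% and 38.0% of all genes were. Slc2a1, the main glucose transporter, stood at 386, 496 and 374 FPKM in LPS and 392, 497 and 331 FPKM in LPS+EVs (log2 difference -0.05, SE 0.15, 95% interval -0.39 to 0.29). Hk2, hexokinase 2, differed by 0.07 (interval -0.34 to 0.47) and Ldha, lactate dehydrogenase A, by -0.13 (interval -0.38 to 0.12). Hif1a, the hypoxia-inducible factor that drives glycolytic genes, differed by 0.20 (SE 0.32, interval -0.55 to 0.94) with pair 2 opposite to the others. Aldoc, an aldolase, had no overlap, at 19.4, 20.4 and 9.41 FPKM in LPS and 27.3, 24.4 and 20.7 FPKM in LPS+EVs (0.59, SE 0.30). Pdk2, which restrains pyruvate dehydrogenase, also had none (0.33, SE 0.15).

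Lists of lipid metabolism and of the oxidative burst had more higher than lower members in all 3 pairs, where 16.7% and 16.8% of all tested genes were. The pentose phosphate and NADPH oxidase list had 7 higher and none lower of 17 (median 0.08, and 7 and 1 after median-of-ratios scaling). Ncf4, an oxidase subunit, stood at 86.9, 90.2 and 92.7 FPKM in LPS and 104, 103 and 116 FPKM in LPS+EVs without overlap (log2 difference 0.25, SE 0.09), and Rac2, the GTPase of the oxidase, at 480, 469 and 436 FPKM against 562, 519 and 602 FPKM (0.28, SE 0.11). Tkt, transketolase, differed by 0.35 (SE 0.12). Fatty acid oxidation had 9 higher and 1 lower of 30 (median 0.13), with the carnitine carrier Slc25a20 at 0.20 (SE 0.10). Cpt1b, with the smallest p of that list, had a lower mean (-0.48, SE 0.22) and was higher in pair 2. Its level was 1.05, 0.409 and 1.77 FPKM in LPS and 0.483, 0.480 and 0.333 FPKM in LPS+EVs. Cholesterol and fatty acid synthesis had 9 and 4 of 34 (0.06), with Pmvk of the mevalonate pathway at 0.34 (SE 0.13). Msmo1, of the same list, was lower in each pair without overlap between groups (-0.41, SE 0.23). Lipid uptake, storage and LXR targets had 7 and 0 of 28 (0.02). Lipid uptake in pairs 1 and 3 alone had 10 higher and 9 lower and cholesterol and fatty acid synthesis 13 and 10, where 29.0% and 38.0% of all genes were. Among the lipid uptake genes Ch25h, cholesterol 25-hydroxylase, was lower in pairs 1 and 3 and higher in pair 2 (-0.54, SE 0.27).

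Antigen presentation by MHC class II was higher in part of its genes. Of 19 tested, 9 were higher in all 3 pairs and none lower (median 0.17), against 16.7% and 16.8% of all tested genes, and after median-of-ratios scaling the counts were 6 and 1. Of the 19, 12 were higher and 3 lower in pairs 1 and 3 alone, against 29.0% and 38.0%. RT1-DMb, a chain of the peptide editor, stood at 34.0, 110 and 37.8 FPKM in LPS and 56.9, 120 and 59.1 FPKM in LPS+EVs (log2 difference 0.49, SE 0.18), with 373 ± 113 FPKM in Control. RT1-Ba, a class II alpha chain, stood at 8.72, 261 and 11.5 FPKM in LPS and 19.9, 262 and 22.4 FPKM in LPS+EVs (0.67, SE 0.27). Replicate 2 held far more of both genes in each group and hardly differed within its pair (0.01 for RT1-Ba). Rfxank, part of the complex that switches on class II promoters, differed by 0.42 (SE 0.17). MHC class I presentation had 7 higher and 2 lower of 32 (median 0.09), with the peptide-loading protein Tapbp at 0.17 (SE 0.09).

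Myeloid genes of uptake and degradation also had more higher than lower members in all 3 pairs, where 16.7% and 16.8% of all tested genes were. Lysosome genes had 17 higher and 3 lower of 49 in all 3 pairs (median 0.09), complement 5 and 2 of 20 (0.12), Fc, lectin and scavenger receptors 11 and 3 of 38 (0.07), and osteoclast-like fusion genes 7 and 1 of 14 (0.16). The lysosome list had 21 higher and 11 lower in pairs 1 and 3 alone, against 29.0% and 38.0%. Cd68, a lysosomal glycoprotein used as a macrophage marker, stood at 542, 591 and 493 FPKM in LPS and 653, 674 and 617 FPKM in LPS+EVs without overlap (log2 difference 0.26, SE 0.10). Hexa, a lysosomal hexosaminidase, differed by 0.28 (SE 0.12) and Tyrobp, the signalling adaptor of several myeloid receptors, by 0.31 (SE 0.13). Clec4a1, a C-type lectin, stood at 1.08, 2.47 and 1.90 FPKM in LPS and 3.45, 2.84 and 3.24 FPKM in LPS+EVs (0.60, SE 0.22), far below Control, from which LPS differed by log2 -4.62. Macrophage and monocyte markers had 8 higher and none lower of 19 (median 0.12), and their summed level was 4438, 7576 and 4010 FPKM in LPS and 5259, 7396 and 4551 FPKM in LPS+EVs, higher in pairs 1 and 3. Dendritic cell markers had 2 higher and none lower of 13 (median 0.02) and sums of 413, 412 and 857 FPKM against 352, 501 and 609 FPKM. Among them Batf3, a transcription factor of cross-presenting dendritic cells, was higher in each pair, at 10.1, 31.7 and 14.1 FPKM in LPS and 16.0, 37.9 and 31.8 FPKM in LPS+EVs (0.67, SE 0.21). Cd24, a surface glycoprotein, and Fscn1, the actin bundler fascin, were lower in pairs 1 and 3 and higher in pair 2 (-0.40, SE 0.26 and -0.32, SE 0.22), and in pairs 1 and 3 alone 3 of the 13 markers were higher and 5 lower. The part of cell composition in these differences was not tested.

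The list of metalloproteinases and inhibitors had 4 higher and 4 lower of 27 in all 3 pairs (median -0.06), against 16.7% and 16.8% of all tested genes. In pairs 1 and 3 alone 5 were higher and 13 lower, where 29.0% and 38.0% of all genes were. The members named here are those with the smallest p, and all 4 had lower means with vesicles. Mmp13, collagenase 3, stood at 84.2, 14.0 and 127 FPKM in LPS and at 27.6, 13.2 and 25.7 FPKM in LPS+EVs (log2 difference -1.30, SE 0.44, 95% interval -2.33 to -0.28). Mmp3, stromelysin 1, stood at 316, 18.9 and 248 FPKM in LPS and 124, 23.3 and 88.8 FPKM in LPS+EVs (-0.84, SE 0.36). For both genes the LPS library numbered 2 was far below the other LPS libraries, and pair 2 differed little (-0.08 and 0.29). Mmp10 had 6 and 7 reads in pair 2 and fewer in LPS+EVs in pairs 1 and 3 (-1.20, SE 0.44). Serpinb2, an inhibitor of plasminogen activators, was lower in all 3 pairs, at 6.67, 4.64 and 43.8 FPKM in LPS and 3.18, 2.91 and 9.37 FPKM in LPS+EVs (-1.17, SE 0.38). Replicate 2 was also the low one for stromal markers, whose sum was 1722, 315 and 1088 FPKM in LPS and 1293, 413 and 1879 FPKM in LPS+EVs. Of 25 stromal markers 5 were higher and 2 lower in all 3 pairs (median 0.16, with pair medians of -0.26, 0.18 and 0.49). Lum, lumican, was lower in all 3 pairs (-0.53, SE 0.21) and Dcn, decorin, in pairs 1 and 3 (-0.61, SE 0.23), whereas the collagen genes Col3a1 and Col6a1 were lower in pair 1 and higher in pairs 2 and 3 (0.75, SE 0.35 and 0.71, SE 0.35). The part of stromal cells in the metalloproteinase values was not tested.

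Cell cycle and cytoskeleton lists had more higher than lower members in all 3 pairs, where 16.7% and 16.8% of all tested genes were. The higher share of mitosis genes, 16.3%, was near that of all tested genes. Mitosis and cytokinesis genes had 8 higher and 4 lower of 49 (median 0.10), and DNA replication genes 13 and 6 of 46 (0.07), with the DNA ligase Lig1 at 0.39 (SE 0.16). In pairs 1 and 3 alone 31 of 49 mitosis genes were higher, where 29.0% of all genes were. This list had a median of -3.03 in LPS against Control, and the filter took in the Control libraries. Bub1b passed it through Control alone, at 19.2 ± 2.61 FPKM there. It stood at 0.236, 0.448 and 0.166 FPKM in LPS and 0.496, 0.659 and 0.518 FPKM in LPS+EVs. Signs of members this low rest on few reads, 28 to 105 per library for Bub1b. Cdc20, the activator of anaphase, stood at 0.907 to 1.47 FPKM over both groups and at 43.7 ± 4.62 FPKM in Control. The actin cytoskeleton list had 14 higher and 5 lower of 37 (median 0.03), among them the myosin gene Myo1f at 52.0, 62.4 and 42.6 FPKM in LPS and 70.9, 67.3 and 63.2 FPKM in LPS+EVs (log2 difference 0.37, SE 0.11) and Was, the Wiskott-Aldrich protein gene (0.31, SE 0.12). Autophagy had 9 and 3 of 34 (0.03), inflammasome and pyroptosis 4 and 1 of 18 (0.01), and alternative macrophage activation 4 and 2 of 22 (0.03). Regulatory and tolerance genes had 6 and 7 of 42 (0.01), with Tiparp, a target of the aryl hydrocarbon receptor, lower in each pair (-0.35, SE 0.15). Tetraspanins and vesicle biogenesis genes had 6 higher and 4 lower of 28 (0.01), with Flot1, flotillin 1, higher in each pair at 29.0, 51.7 and 33.9 FPKM in LPS and 37.5, 61.3 and 57.1 FPKM in LPS+EVs (0.45, SE 0.13).

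Markers of other cell types were present at various levels. In all 3 pairs 16.7% of all tested genes were higher and 16.8% lower. Neutrophil and granulocyte precursor markers had 5 higher and none lower of 8 tested (median 0.29), with sums of 426, 141 and 729 FPKM in LPS and 380, 168 and 675 FPKM in LPS+EVs and Prtn3 at 0 in all 6 libraries. S100a8, a subunit of calprotectin, was higher in each pair but uneven, with 8.87 FPKM in LPS+EVs replicate 3 against 0.946 FPKM in its LPS partner (log2 difference 0.96, SE 0.67). Some of these signs rest on few reads: 7 to 141 per library for S100a8, 15 to 59 for Camp and 18 to 145 for Csf3r. Csf3r passed the filter only with its Control values, 8.65 and 3.34 FPKM in replicates 1 and 3. Cebpe, a transcription factor of granulocyte maturation, was lower in pairs 1 and 3 and higher in pair 2 (-0.38, SE 0.27). T and NK cell markers had 2 higher and 1 lower of 6 (median -0.03), and their sums, 112 to 221 FPKM in LPS and 90.7 to 108 FPKM in LPS+EVs, did not overlap. Most of that sum was Il7r, the interleukin-7 receptor chain, at 130, 100 and 203 FPKM in LPS and 81.8, 94.6 and 74.8 FPKM in LPS+EVs (-0.73, SE 0.23). Erythroid and megakaryocyte markers had 1 and 1 of 6 (median -0.16), with sums of 610 to 1941 FPKM in LPS and 617 to 1453 FPKM in LPS+EVs, mostly Pf4, and Alas2 at 0. Mast cell, basophil and eosinophil markers had 1 higher and none lower of 2, with sums of 5.65 to 16.7 FPKM and 5.88 to 20.9 FPKM and Cma1 and Il5ra at 0. No B cell marker passed the filter, and the sums of that list were at most 1.34 FPKM, with Cd79b at 0.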

How the data were processed

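RNA sequencing of 9 dendritic cell cultures was deposited by the authors as 1 table of FPKM values, with 3 libraries each labelled Control, LPS and LPS+EVs. The submitters' processing notes name fastp, HISAT2, HTSeq, R and the rat build mRatBN7.2, without settings. How strand and multiply mapped reads were counted is not given in the sources used here. FPKM steps gave back whole reads for 18833 genes, within 0.002 reads, and library totals of 32148519 to 39407116 assigned reads, where 3 reads per kilobase equal 0.076 to 0.093 FPKM.

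Genes reaching 1 FPKM in 3 or more of the 9 libraries were kept. log2(FPKM + 1) was fitted with limma 3.58.1 (R 4.3.3, trended variance) over all 9 libraries with group and replicate number as terms, and p-values were adjusted over 11141 genes by Benjamini-Hochberg. The SEs and intervals therefore take in the spread of the Control libraries and are not those of the 3 pair differences alone. Fold changes are on this log2 scale, which understates those of low genes. Same-numbered libraries were taken as pairs: their deviations from group means correlated at 0.28 to 0.86, against -0.74 to 0.43 for different numbers. This pairing comes from the titles and that check, not from a stated shared animal. The fit was tested on simulated data.

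Since no gene passed, the text names the 12 higher and 12 lower same-sign genes with the smallest p, a panel of 20 genes, and up to 4 genes with the smallest p of each list; others are said to be chosen after their values were seen. The remaining mitochondrially encoded genes (ND2, ND6, COX2, COX3, ATP6, ATP8 and CYTB) were added after their values were seen to complete that set. Members and lists were chosen with earlier results of these data known. Alternatives were no replicate block, the 6 libraries alone, median-of-ratios scaling, no filter, a pseudocount of 0.1, limma-voom on recovered reads, and leaving out libraries or replicate numbers. Counts in pairs 1 and 3, counts under median-of-ratios scaling and the fit without the block under that scaling were added after the data were seen. Promoters came from RefSeq (GRCr8); no gene coordinates of that build are set beside the expression values.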

Additional observations from a re-analysis of the deposited data

How the results depend on the processing

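Over 16 alternatives, no gene passed an adjusted p under 0.05 in either direction except when all 3 libraries numbered 2 were left out. Leaving out a single LPS or LPS+EVs library gave 0 in both directions. Leaving out a whole replicate number gave 0 to 1 gene higher and 0 to 4 lower, also at 2-fold or more. With the replicate block removed the count was 0 in limma, with 295 genes at an unadjusted p under 0.05 and a smallest adjusted p of 0.999. Genes at an unadjusted p under 0.05 numbered from 73 without replicate 3 to 2044 without replicate 2. Other counts were 1105 with the 6 libraries alone, 1014 with no filter, 571 with median-of-ratios scaling and 598 with a pseudocount of 0.1. The causes were not tested.

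Signs turned only when libraries were left out. Over these 9 alternatives the log2 difference ran from -0.13 to 0.11 for Nos2, from -0.15 to 0.35 for Acod1, from -1.02 to 0.03 for Il6 and from -0.33 to 0.61 for Il12b. It ran from -0.03 to 0.19 for Tnf, from -0.22 to 0.09 for Cd40, from -0.03 to 0.36 for Cd80 and from -0.59 to 0.01 for Ccr7. For Hif1a it ran from -0.14 to 0.59, for Slc2a1 from -0.16 to 0.07, for Hk2 from -0.15 to 0.21 and for COX1 from -0.19 to 0.24. Together 28 of 2080 values, for 12 of 130 named genes, had the other sign. Counts of list members moved by over 1.5 times under median-of-ratios scaling only where the count was 4 or lower, as for glycolysis (1 to 3 lower) and the citric acid cycle (4 to 2 lower). Taking pairs 1 and 3 alone turned the balance of higher and lower members for glycolysis, interferon-stimulated, Toll-like receptor and NF-kB, costimulation and dendritic cell marker genes, with the counts given beside those lists. It did so too for chemokine receptors (2 higher and 5 lower), alternative macrophage activation (4 and 9), nitric oxide, itaconate and prostaglandin synthesis (8 and 10), tetraspanins and vesicle biogenesis (8 and 10) and stromal markers (5 and 8). All tested genes moved the same way, from 16.7% higher and 16.8% lower in all 3 pairs to 29.0% and 38.0% in pairs 1 and 3. Other lists kept more higher than lower members there, such as cytosolic ribosomal proteins (75 and 3), mitosis and cytokinesis (31 and 4) and lysosome genes (21 and 11). The cause was not tested.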
